A study of Homo sapiens with 18 samples.

Results

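The 51 genes described here encode the machinery that licenses replication origins, unwinds DNA and copies it at the fork. They were chosen by gene symbol from their known roles, with no measured value in the rule: the origin recognition complex, the MCM2-7 helicase and its loaders, the firing factors, the replicative polymerases, the sliding clamp, single-strand binding and fork protection proteins, the chromatin assembly factor and ribonucleotide reductase. The choice was made with earlier results of these data known, so it was not blind to them. All 51 were among the 17110 genes listed for HL-60 and the 17475 listed for MOLM-13, and all 51 passed the filter on low values in both lines. Expression was measured by stranded total RNA sequencing in these human acute myeloid leukaemia lines, each with 3 groups of 3 replicates, 18 samples in all, harvested at day 2. HL-60 is a promyelocytic line and MOLM-13 a monocytic one. In each line, 1 group received the solvent dimethyl sulfoxide (DMSO), 1 received decitabine (DAC), a deoxycytidine analogue on which DNA methyltransferases become trapped, and 1 received NTX-301, an inhibitor of DNA methyltransferase 1, each for 48 h. The labels state 30 nM in HL-60 cultures and 15 nM in MOLM-13 cultures, in wording that can be read as the dose of both drugs or only of DAC. Each line has 1 stated dose, which therefore cannot be told apart from the line. No label says that replicates came from separate cultures, so p-values measure only the spread between these samples, which may be technical.

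Replication starts at origins bound by the origin recognition complex, on which CDC6 and CDT1 load the MCM2-7 helicase in G1 while geminin blocks CDT1 later in the cycle. The kinase of CDC7 and DBF4, with MCM10, CDC45 and the GINS complex, turns the loaded ring into the active CMG helicase, behind which primase and polymerases alpha, delta and epsilon copy the strands. Many of these genes are transcribed at the boundary of G1 and S under E2F factors, and their transcripts are abundant in proliferating leukaemia cells.

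All values are the deposited normalized log2 expression values. Each line appears to have been normalized apart, so levels are not compared between lines. They are not compared between genes either, since it is not known whether gene length enters the values. A gene is called where limma gave an adjusted p under 0.05 over all genes tested in the line. The median SD between replicates over the 51 genes was 0.023 to 0.033 in HL-60 groups and 0.026 to 0.038 in MOLM-13 groups. Read depth per sample is not known. Fold changes are log2 differences between group means, and they are small here: −0.27 on this scale is a change of −17.1% in the linear value.

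In MOLM-13, nearly the whole replication machinery was lower after either drug. DAC lowered 48 of the 51 genes and raised 0 (limma, with 50 lower and 0 higher at an unadjusted p under 0.05), with a median log2 fold change of −0.27. Among all genes tested there, 21.2% were called lower and 15.4% higher, with a median of 0.0013. These shares are at the adjusted threshold. Here and below, counts at an unadjusted p were not made over all genes. NTX-301 also lowered 48 and raised 0 (50 and 0 at an unadjusted p under 0.05), with a median of −0.32, beside 24.8% lower and 20.3% higher among all genes and a median of 0.0034. With each drug, the 3 treated samples lay below the 3 DMSO samples in 50 of the 51 genes, and above them in none, beside 24.9% below and 23.0% above among all genes with DAC and 28.6% below and 27.2% above with NTX-301. The exceptions were ORC4 with DAC and PRIM2 with NTX-301. Quantile normalization left 42 lower with DAC, without PRIM2, POLD1, POLE, LIG1, RPA1 and CLSPN, and 43 with NTX-301, without ORC5, POLA1, POLE, RPA1 and RRM2. In RNA of whole cultures, fewer cells of a type, such as cells in S phase, and less RNA per cell cannot be told apart.

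In HL-60 few of these genes fell. DAC raised 6 and lowered 2 of the 51, with a median of 0.020, where 11.6% of all genes were called higher and 12.6% lower. Centring each sample left 6 higher and 1 lower. The 3 DAC samples lay above the 3 DMSO samples in 11 of the 51 and below them in 5, beside 19.3% and 19.2% of all genes. NTX-301 raised 30 and lowered 1, with a median of 0.094, where 18.3% of all genes were called higher and 19.2% lower. In 33 of the 51 genes the 3 NTX-301 samples lay above the 3 DMSO samples, and in 1, TIPIN, below them, beside 23.3% above and 24.0% below among all genes. After centring each sample on its median, which moved the balance of all genes to 2310 higher and 5400 lower, 24 of the 51 were called higher with NTX-301 and 1 lower. The 6 calls lost were those of MCM2, PRIM2, POLE2, RFC1, RFC5 and CHAF1B.

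**Figure D1:**
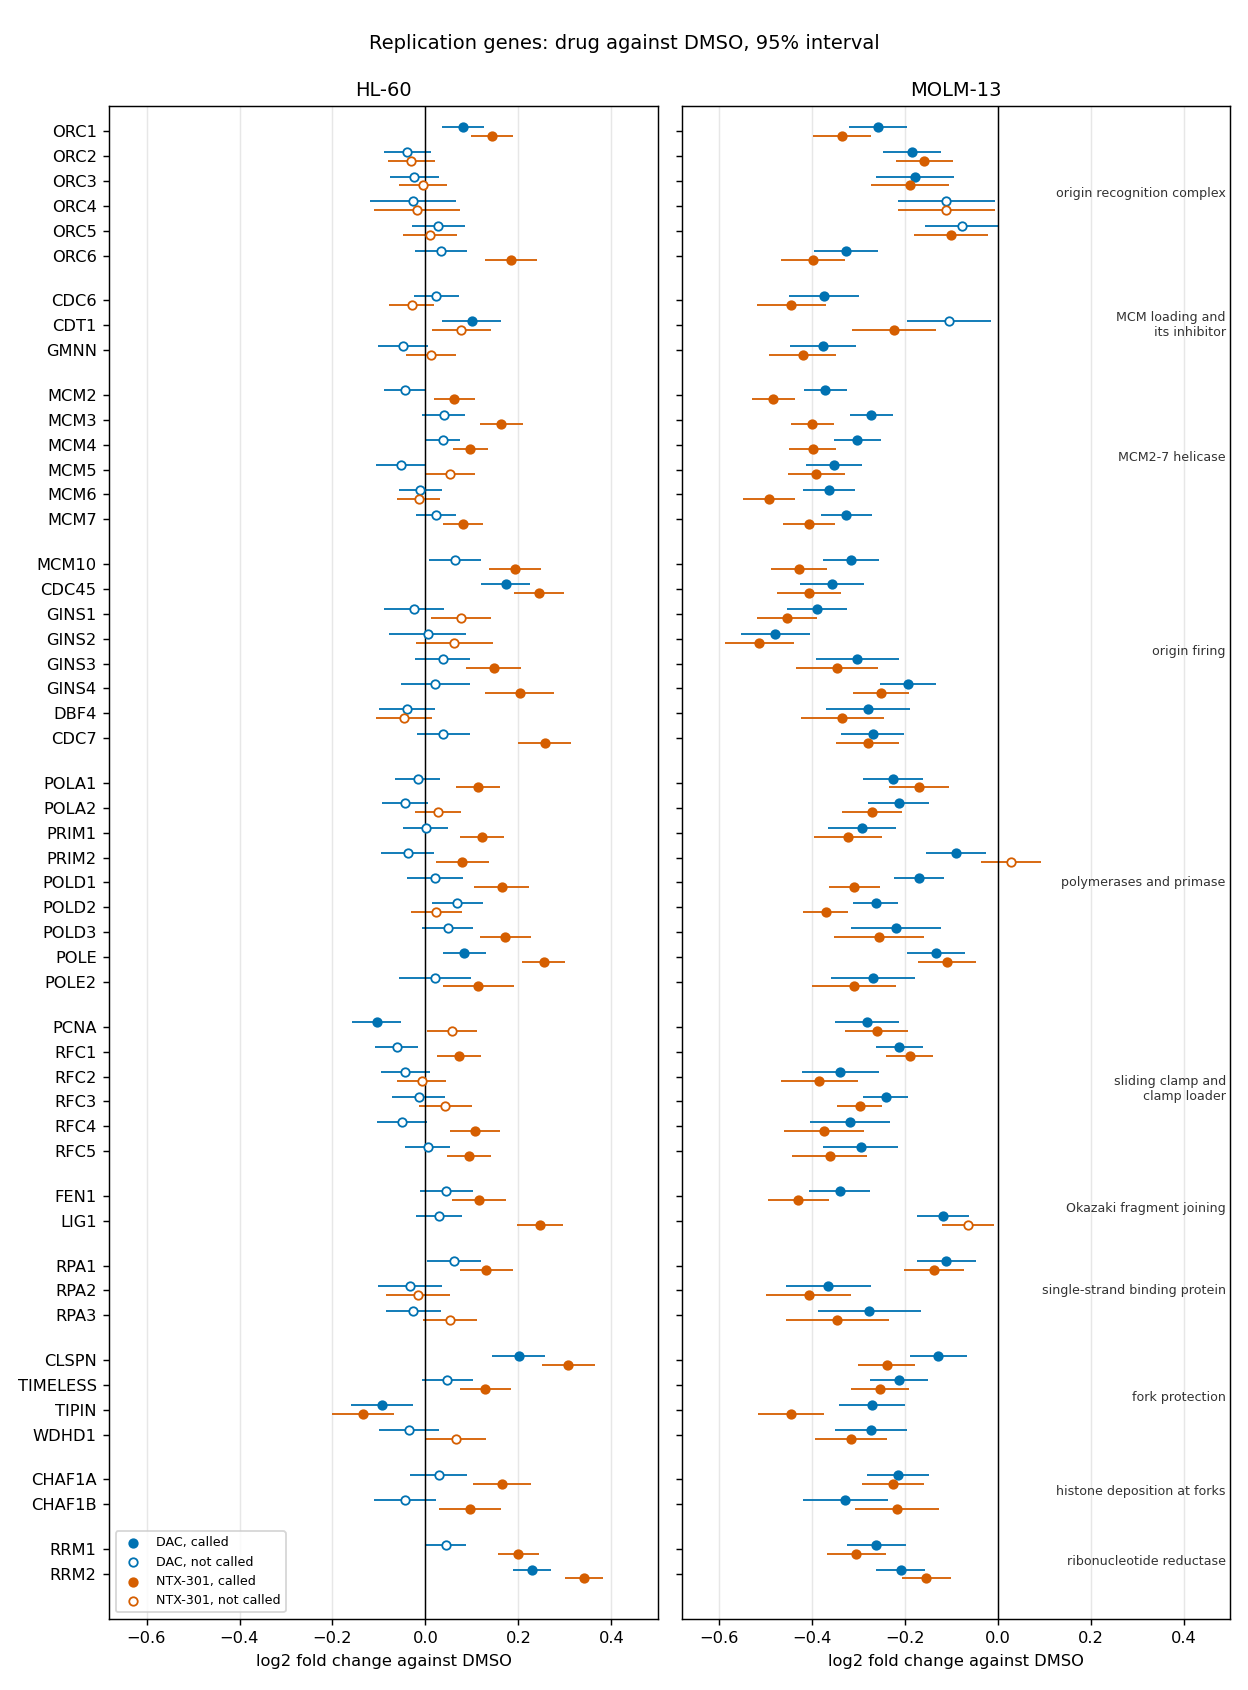
Log2 fold change of each of the 51 genes against DMSO (x axis) in HL-60 (left) and MOLM-13 (right), grouped by role, with points for DAC and NTX-301, filled where called, and bars for the 95% interval. MOLM-13 points lie left of 0 except PRIM2 with NTX-301 (0.028), while HL-60 points spread around 0 with DAC and mostly to its right with NTX-301.

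The shift was seen in each treated MOLM-13 sample. Taking each gene against its DMSO mean, the median over the 51 genes was −0.24, −0.27 and −0.30 in the MOLM-13 samples with DAC and −0.32, −0.31 and −0.34 in those with NTX-301. The DMSO samples of that line gave −0.025, 0.020 and 0.00095. With DAC, 51 of 51 genes lay below their DMSO mean in each of the 3 samples, and with NTX-301 51, 50 and 50 did. In the DMSO samples of that line 40, 11 and 22 did, so the genes of a sample also shifted together without a drug. This count was not made over all genes. In HL-60 the medians were 0.0091, −0.0098 and 0.023 with DAC and 0.088, 0.086 and 0.10 with NTX-301. The DMSO samples of HL-60 gave 0.0032, 0.0062 and −0.0085, so 2 DAC samples lay above them and 1 below, and the 3 NTX-301 samples lay above both groups.

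**Figure D2:**
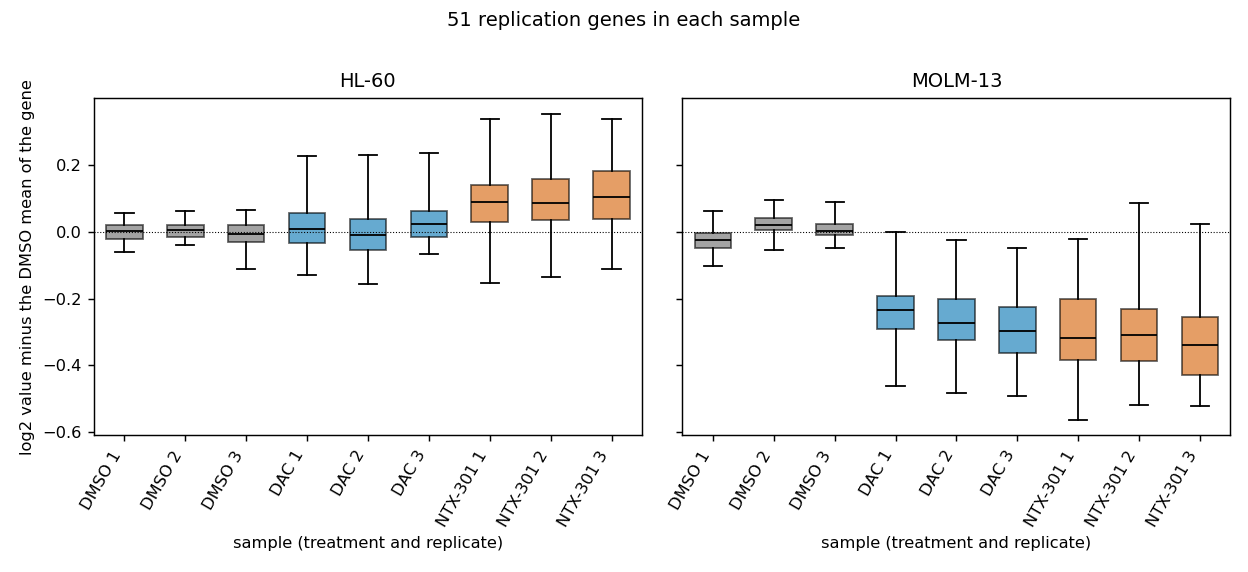
The 51 genes in each sample, as the log2 value minus the gene's DMSO mean (y axis), with the line at the median, the box at the quartiles and the whiskers at the lowest and highest gene. The 6 drug-treated MOLM-13 boxes lie below 0 (medians −0.34 to −0.24), and the 3 HL-60 boxes for NTX-301 lie above 0 (medians 0.086 to 0.10).

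The origin recognition complex, whose 6 subunits mark origins, showed the smallest MOLM-13 medians, −0.18 with DAC (4 of 6 lower) and −0.17 with NTX-301 (5 of 6 lower). ORC1 and ORC6 made up the larger falls. ORC6 in MOLM-13 was 11.84, 11.93 and 11.88 in DMSO, 11.59, 11.57 and 11.52 with DAC and 11.50, 11.51 and 11.45 with NTX-301. The 3 groups did not overlap, and the fold changes were −0.33 (SE 0.031, limma adjusted p 1.7e-05) and −0.40 (adjusted p 2.7e-06). ORC4 was not called with either drug (−0.11 for both, adjusted p 0.089 and 0.078), and ORC5 was called with NTX-301 alone (−0.10, adjusted p 0.038), a call lost in 8 of 17 alternatives. In HL-60, ORC1 rose with DAC (0.081) and NTX-301 (0.14) and ORC6 with NTX-301 (0.18), while the other 4 subunits were not called. The DAC call of ORC1 was lost without DAC replicate 1.

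Of the loaders and their inhibitor, CDC6, the ATPase that brings the helicase to origins, was 12.76, 12.87 and 12.87 in MOLM-13 with DMSO, 12.50, 12.41 and 12.46 with DAC and 12.39, 12.41 and 12.37 with NTX-301. Both drug groups lay below DMSO without overlap, and CDC6 fell by 0.37 and 0.44 (SE 0.034 for both, limma adjusted p 1.2e-05 and 2.3e-06). The drug groups nearly met at 12.41, and the difference between them was not called. GMNN, which encodes geminin, fell nearly as much, from 12.95 ± 0.028 in DMSO to 12.58 ± 0.051 and 12.53 ± 0.049 (SD, n = 3). Thus the loader and the inhibitor of loading were lowered together. CDT1, the partner that geminin binds, was 11.93, 11.91 and 11.90 in DMSO, 11.73, 11.89 and 11.81 with DAC and 11.76, 11.67 and 11.64 with NTX-301. Its fall with DAC was not called (−0.11, 95% interval −0.20 to −0.015, limma adjusted p 0.065) and that with NTX-301 was (−0.22, adjusted p 0.00094). In HL-60 CDC6 (0.024 and −0.030) and GMNN (−0.049 and 0.012) were not called with either drug, and CDT1 rose with DAC (0.10, adjusted p 0.025). Leaving out DMSO replicate 1, DMSO replicate 2 or DAC replicate 2 ended that call, and the lowest value over the alternatives was 0.078.

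The 6 subunits of the MCM2-7 ring moved together in MOLM-13: 6 of 6 fell with each drug, between −0.37 and −0.27 with DAC and between −0.49 and −0.39 with NTX-301. MCM6 had the lowest value with NTX-301. Its log2 value was 14.32, 14.35 and 14.36 in DMSO, 13.99, 14.01 and 13.94 with DAC and 13.88, 13.83 and 13.85 with NTX-301, so the 3 groups stood apart in steps. The fold changes were −0.36 (SE 0.026, limma adjusted p 2.1e-06) and −0.49 (adjusted p 1.8e-07), and with NTX-301 MCM6 held rank 35 from the lowest among 17475 genes. MCM2 was 14.49, 14.54 and 14.53 in DMSO, 14.16, 14.15 and 14.13 with DAC and 14.04, 14.04 and 14.03 with NTX-301. Like MCM6 it stepped down from DMSO to DAC to NTX-301 without overlap, by 0.37 and 0.48 against DMSO.

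In HL-60 the subunits did not move together. With DAC 0 of 6 subunits were called (limma, values −0.053 to 0.039), and with NTX-301 4 rose, MCM3 by 0.16, MCM4 by 0.096, MCM7 by 0.080 and MCM2 by 0.062 (adjusted p 0.029). Centring ended the MCM2 call, as did leaving out DMSO replicate 1 or NTX-301 replicate 3. MCM2 there was 14.71, 14.76 and 14.77 in DMSO, 14.71, 14.70 and 14.71 with DAC and 14.79, 14.80 and 14.84 with NTX-301, narrow steps of which that with DAC was not called (−0.044, adjusted p 0.14). MCM6, the lowest subunit in MOLM-13 with NTX-301, was 14.47 ± 0.013, 14.46 ± 0.038 and 14.46 ± 0.022 in HL-60 (SD, n = 3), with intervals of −0.058 to 0.036 for DAC and −0.061 to 0.033 for NTX-301.

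Among the firing factors, 8 of 8 fell in MOLM-13 with each drug (medians −0.31 and −0.38). GINS2, a subunit of the GINS complex, which joins MCM2-7 and links it to the leading strand polymerase, had the lowest value of the 51 genes with both drugs. It was 11.68, 11.76 and 11.73 in DMSO, 11.26, 11.24 and 11.23 with DAC and 11.16, 11.27 and 11.20 with NTX-301. Both drug groups lay far below DMSO and overlapped each other, at −0.48 (SE 0.034, limma adjusted p 2.3e-06) and −0.51 (adjusted p 8.4e-07), changes of −28.2% and −29.9% in the linear value. GINS1, another subunit, was 12.70, 12.78 and 12.72 in DMSO, 12.37, 12.30 and 12.37 with DAC and 12.28, 12.27 and 12.29 with NTX-301 (−0.39 and −0.45, adjusted p 3.3e-06 and 7.1e-07). All 4 GINS genes, MCM10, CDC45 and both subunits of the CDC7 kinase were lower with no overlap with DMSO.

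HL-60 differed by gene within the same group. With NTX-301, 5 of 8 firing factors rose, CDC7, CDC45, GINS4, MCM10 and GINS3 by 0.15 to 0.26, while GINS2 (0.062, 95% interval −0.021 to 0.15), GINS1 (0.077, limma adjusted p 0.058) and DBF4 (−0.046) were not called. CDC45, which completes the CMG helicase, was the 1 firing factor called with DAC. It read 12.52, 12.51 and 12.55 in DMSO, 12.72, 12.67 and 12.72 with DAC and 12.77, 12.74 and 12.81 with NTX-301, with both drug groups above DMSO by 0.17 and 0.24 (SE 0.025 for both, adjusted p 0.00021 and 3.4e-06). In MOLM-13 the same gene ran the other way, from 12.34, 12.32 and 12.39 in DMSO to 12.00, 12.00 and 11.98 with DAC and 11.89, 12.00 and 11.93 with NTX-301.

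**Figure D3:**
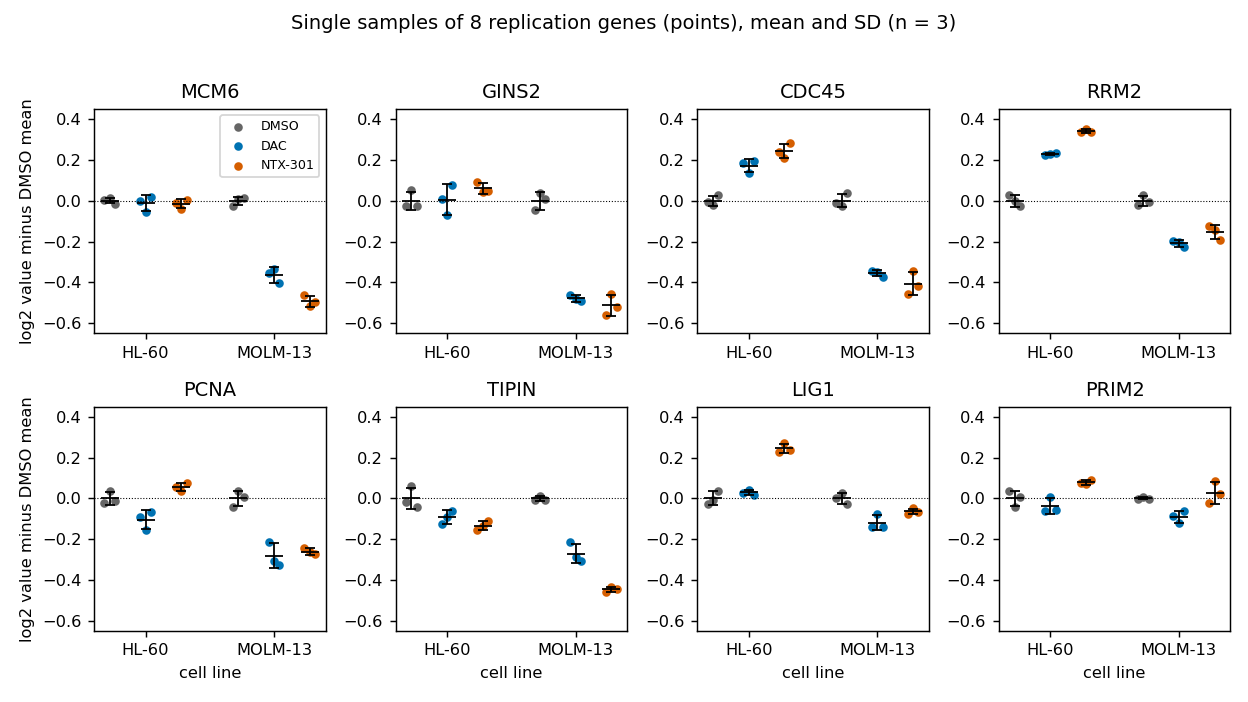
Single samples (points) of 8 genes as the log2 value minus the DMSO mean of the line (y axis), with the mean and SD (n = 3) of each group, in HL-60 and MOLM-13 (x axis). CDC45 and RRM2 lie above 0 with both drugs in HL-60 and below it in MOLM-13, MCM6 and GINS2 fall in MOLM-13 alone, and PRIM2 with NTX-301 in MOLM-13 stays around 0.

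Of the 9 polymerase and primase genes, 9 fell with DAC in MOLM-13 and 8 with NTX-301 (medians −0.22 and −0.27). The lowest was PRIM1, the catalytic primase subunit, with DAC (−0.29), and POLD2, an accessory subunit of polymerase delta, with NTX-301 (−0.37). PRIM2, the other primase subunit, departed from its partner: it was 12.33, 12.33 and 12.32 in DMSO, 12.24, 12.21 and 12.27 with DAC and 12.31, 12.41 and 12.35 with NTX-301. The DAC samples lay just below DMSO (−0.090, limma adjusted p 0.033, lost in 7 of 17 alternatives) and the NTX-301 samples spanned it (0.028, adjusted p 0.47). In HL-60, 7 of 9 rose with NTX-301 (median 0.11) and 1 with DAC. POLE, the catalytic subunit of the leading strand polymerase, was 13.83, 13.79 and 13.85 in DMSO, 13.90, 13.93 and 13.88 with DAC and 14.07, 14.08 and 14.07 with NTX-301, 3 separate levels (0.084 and 0.25 against DMSO). Leaving out DMSO replicate 2 or DAC replicate 2 ended the DAC call.

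PCNA, the sliding clamp that holds polymerases on DNA, was the lowest of the 51 genes with DAC in HL-60. It stood at 14.21, 14.27 and 14.22 in DMSO, 14.14, 14.08 and 14.17 with DAC and 14.29, 14.27 and 14.31 with NTX-301. The DAC samples lay below DMSO (−0.11, SE 0.025, limma adjusted p 0.0072), and the NTX-301 samples above it by less than the test called (0.057, adjusted p 0.090). In MOLM-13 PCNA was 15.21 ± 0.038 in DMSO (SD, n = 3) and fell by 0.28 with DAC, to 14.92 ± 0.061, and by 0.26 with NTX-301, to 14.94 ± 0.015. The 5 subunits of its loader, replication factor C, fell in MOLM-13 by 0.19 to 0.38 over both drugs. In HL-60, RFC1, RFC4 and RFC5 rose with NTX-301 (0.072, 0.11 and 0.094) and RFC2 and RFC3 were not called. With DAC 0 of the 5 were called there by limma, at −0.062 to 0.0044.

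FEN1 and LIG1, which trim and join Okazaki fragments, parted in MOLM-13. FEN1 fell by 0.34 and 0.43, whereas LIG1 was 13.16, 13.19 and 13.13 in DMSO, 13.02, 13.08 and 13.02 with DAC and 13.09, 13.11 and 13.09 with NTX-301. The LIG1 fall was called with DAC (−0.12, limma adjusted p 0.0033) and not with NTX-301 (−0.064, 95% interval −0.12 to −0.010, adjusted p 0.058), and the DAC value was −0.035 after quantile normalization. In HL-60 both rose with NTX-301. LIG1 read 12.65, 12.67 and 12.72 in DMSO, 12.71, 12.72 and 12.70 with DAC and 12.90, 12.95 and 12.92 with NTX-301, so the NTX-301 samples alone stood higher (0.25, SE 0.023, adjusted p 1.6e-06). The 3 subunits of replication protein A, which coats single strands, fell in MOLM-13 by 0.11 to 0.37 with DAC and 0.14 to 0.41 with NTX-301, least for RPA1. After quantile normalization the RPA1 values were −0.027 and −0.038. RPA1 was the 1 subunit that rose with NTX-301 in HL-60 (0.13).

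The 4 fork protection genes fell in MOLM-13 with each drug (medians −0.24 and −0.29) and split in HL-60. CLSPN encodes claspin, an adaptor between the fork and the checkpoint kinase CHK1. In HL-60 it was 12.37, 12.29 and 12.33 in DMSO, 12.55, 12.51 and 12.53 with DAC and 12.64, 12.60 and 12.66 with NTX-301, rising in steps by 0.20 (SE 0.026, limma adjusted p 9.2e-05) and 0.31 (adjusted p 6.2e-07). TIPIN, which binds TIMELESS at the fork, went the other way, from 11.03, 11.10 and 11.00 to 10.91, 10.95 and 10.98 with DAC and 10.89, 10.91 and 10.93 with NTX-301. It was the 1 gene of the 51 called lower with both drugs in HL-60 (−0.093, adjusted p 0.043, and −0.13, adjusted p 0.0036). The DAC call was lost in 10 of 17 alternatives. TIPIN in MOLM-13 stepped down from 11.02, 11.04 and 11.02 to 10.81, 10.73 and 10.72 with DAC and 10.57, 10.59 and 10.58 with NTX-301 (−0.27 and −0.45). Its partner TIMELESS rose in HL-60 with NTX-301 (0.13) and fell in MOLM-13 (−0.21 and −0.25).

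CHAF1A and CHAF1B, subunits of the factor that places histones on new DNA, fell in MOLM-13 (−0.22 and −0.33 with DAC, −0.23 and −0.22 with NTX-301) and rose with NTX-301 in HL-60 (0.16 and 0.096). Ribonucleotide reductase makes the deoxynucleotides that polymerases use, and its small subunit RRM2 was the highest of the 51 genes with both drugs in HL-60. RRM2 read 14.02, 13.99 and 13.96 in DMSO, 14.22, 14.22 and 14.23 with DAC and 14.33, 14.34 and 14.33 with NTX-301. The 3 levels were far apart beside their spread, at 0.23 (SE 0.019, limma adjusted p 1.3e-06) and 0.34 (adjusted p 1.1e-08), rises of 17.2% and 26.7% in the linear value. In MOLM-13 RRM2 fell from 14.48, 14.53 and 14.49 to 14.30, 14.30 and 14.27 with DAC and 14.37, 14.35 and 14.31 with NTX-301. The falls were 0.21 and 0.15 on the log2 scale, and that with NTX-301 was not called after quantile normalization (−0.024). RRM1, the large subunit, followed RRM2 in direction (0.044, not called, and 0.20 in HL-60, −0.26 and −0.31 in MOLM-13).

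The drugs were then compared with each other, 1 pair in each line, at doses that the labels may or may not give as matched. In HL-60, 33 of the 51 genes were higher with NTX-301 than with DAC and 0 lower (limma, with 38 and 1 at an unadjusted p under 0.05), beside 15.4% higher and 15.0% lower among all genes. The median difference was 0.093, and after centring 23 were higher and 2, CDC6 and POLD2, lower, with 1818 of all genes higher and 4860 lower. CDC7, the catalytic subunit of the firing kinase, differed most. It was 11.94, 11.89 and 11.86 in DMSO, 11.93, 11.93 and 11.94 with DAC and 12.18, 12.16 and 12.12 with NTX-301, a difference between drugs of 0.22 (SE 0.026, adjusted p 2.8e-05). LIG1 followed at 0.22 (SE 0.023, adjusted p 9.0e-06) and PCNA stood 0.16 higher with NTX-301 (adjusted p 0.00021). For each of the 18 genes not called, the 95% interval of the difference lay within 0.2 of 0 and for 17 within 0.15. Each comparison with DMSO shares its control samples with the other, and side by side 6 genes were called the same way with both drugs in HL-60, 5 higher (ORC1, CDC45, POLE, CLSPN and RRM2) and 1 lower (TIPIN), with 2 called with DAC alone (CDT1 and PCNA) and 25 with NTX-301 alone. Among all genes there, 6.89% were called higher with both and 7.51% lower with both. Calls with 1 drug alone were not counted over all genes. Against DMSO, 18.3% of all genes were called higher and 19.2% lower with NTX-301, and 11.6% and 12.6% with DAC.

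In MOLM-13, 1 gene was higher with NTX-301 and 9 lower, beside 3.01% higher and 4.41% lower among all genes, with a median of −0.044. The 9 were MCM2, MCM3, MCM4, MCM6, MCM10, POLD1, POLD2, CLSPN and TIPIN. All 6 helicase subunits had values below their DAC level, and 4 of them were called. Of these 4, MCM2, MCM4 and MCM6 lost the call in at least 1 alternative. TIPIN (−0.17, SE 0.032, limma adjusted p 0.0092) and POLD1 (−0.14, SE 0.025, adjusted p 0.0082) had the lowest values. POLD1, the catalytic subunit of polymerase delta, was 13.67, 13.67 and 13.64 in DMSO, 13.45, 13.51 and 13.51 with DAC and 13.37, 13.36 and 13.32 with NTX-301, with no overlap between the drugs. The 1 gene higher was PRIM2 (0.12, adjusted p 0.036), a call lost in 8 of 17 alternatives. The count of 9 fell to 4 without NTX-301 replicate 2 and to 3 without NTX-301 replicate 3. For the 41 genes not called, the interval of the difference lay within 0.15 of 0 for 37 and reached −0.21 (CDT1) and 0.20 (CHAF1B) at most.

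A difference in drug effect between lines was tested by subtracting the HL-60 fold change from the MOLM-13 one. For DAC, 48 of the 51 genes had a lower effect in MOLM-13 and 0 a higher one (limma, with 49 and 0 at an unadjusted p under 0.05), beside 17.9% lower and 12.1% higher among 15474 genes, and the median difference was −0.29. After centring, 1359 of all genes were higher and 4382 lower. For NTX-301 the counts were again 48 and 0 (49 and 0 unadjusted), beside 22.4% lower and 17.6% higher, with a median of −0.42. ORC4, ORC5 and PRIM2 were the 3 not called with either drug. CDC45 had the lowest difference with both, −0.53 for DAC (SE 0.040, adjusted p 1.9e-08) and −0.65 for NTX-301 (adjusted p 6.5e-10). The origin recognition complex had medians of −0.15 and −0.16, and the firing factors −0.35 and −0.53.

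Set side by side, 5 genes were called higher in HL-60 and lower in MOLM-13 with DAC, and 28 with NTX-301, where 2.04% and 3.88% of the 15474 genes were. TIPIN and PCNA with DAC, and TIPIN with NTX-301, were lower in both lines, beside 6.17% and 10.5% of those genes. None of the 51 was called higher in both by limma, beside 3.46% and 6.05%. As a description across the 51 genes, which share libraries and are not independent replicates, the fold changes in the 2 lines gave a Pearson's r of 0.24 (rho 0.27) for DAC and 0.25 (rho 0.24) for NTX-301.

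**Figure D4:**
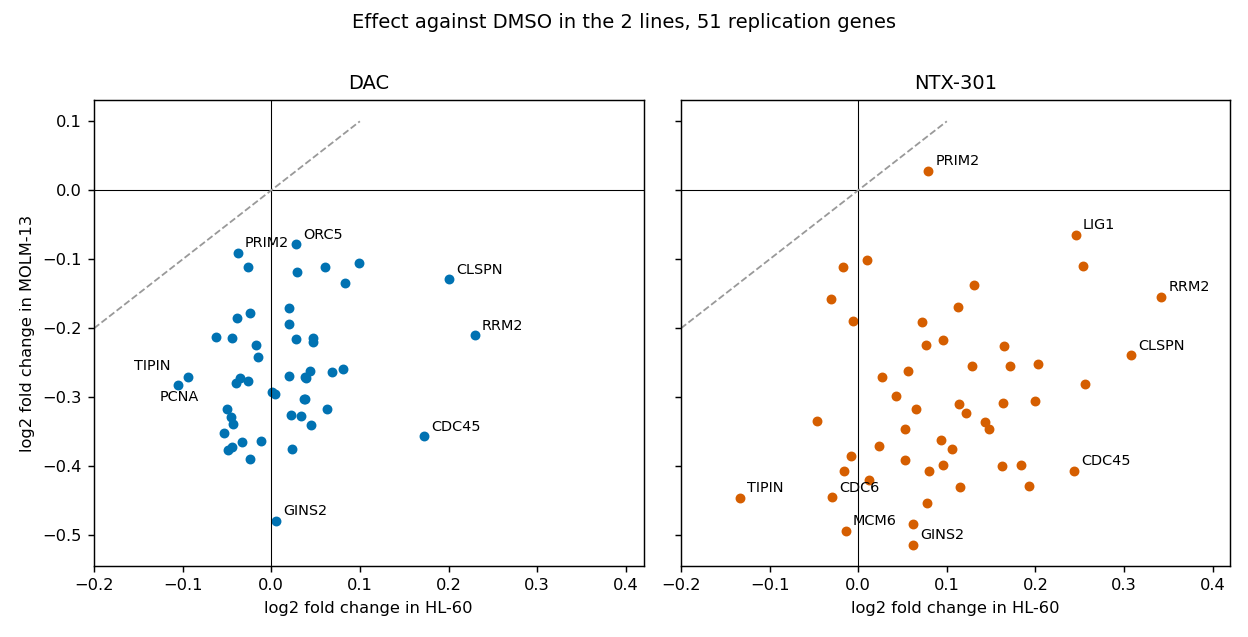
Log2 fold change against DMSO of the 51 genes (points) in HL-60 (x axis) and MOLM-13 (y axis), for DAC (left) and NTX-301 (right), with a dashed line where both would be equal. All 51 points lie below the dashed line, and for NTX-301 most lie in the quadrant that is above 0 in HL-60 and below 0 in MOLM-13.

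Other replication genes, 40 with roles in firing control, topology, clamp unloading, chromatin at forks and nucleotide supply, had medians of the same sign in each contrast with DMSO. In MOLM-13, 28 fell and 2 rose with DAC (median −0.19) and 31 fell and 2 rose with NTX-301 (median −0.23). With DAC, USP1, a deubiquitinase that acts on PCNA, was among the lowest called values (−0.38). With NTX-301 the lowest were those of DCTPP1 (−0.44), which removes modified dCTP, and RNASEH2A (−0.40), which cuts RNA paired with DNA. The exceptions were POLD4, the smallest subunit of polymerase delta, which rose with both drugs (0.29 and 0.19), SAMHD1, a dNTP hydrolase, with DAC (0.22), and RRM2B, the p53-inducible reductase subunit, with NTX-301 (0.17). In HL-60, 10 rose and 4 fell with DAC (median 0.0045) and 20 rose and 6 fell with NTX-301 (median 0.065). TYMS, thymidylate synthase, and DONSON, a fork factor, had the highest values there, 0.21 and 0.29 with DAC and 0.38 and 0.35 with NTX-301. The lowest called were RNASEH2C (−0.18) and RNASEH2A (−0.14) with DAC and DCTPP1 (−0.20) and SSRP1 (−0.16), a histone chaperone subunit, with NTX-301.

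E2F1, the activator that drives many of these genes, followed them in MOLM-13. Its values were 11.15, 11.17 and 11.07 in DMSO, 10.86, 10.82 and 10.84 with DAC and 10.69, 10.72 and 10.64 with NTX-301, 3 groups without overlap (−0.29 and −0.44, limma adjusted p 7.4e-05 and 2.7e-06). In HL-60 E2F1 was not called with DAC (−0.034, adjusted p 0.31) or NTX-301 (0.054, adjusted p 0.071). Of the 8 E2F genes, 3 rose and 2 fell with DAC there, and 4 rose and 2 fell with NTX-301, while 5 fell with each drug in MOLM-13. In HL-60 E2F2, E2F7 and E2F8, chosen after their values were seen, rose with DAC (0.21, 0.29 and 0.22) and more with NTX-301 (0.76, 0.50 and 0.54). The differences between the drugs, 0.55, 0.20 and 0.33, were each called. The 2 that fell there were E2F4 and E2F6. In DMSO, DAC and NTX-301 the means were 12.36, 12.26 and 12.22 for E2F4 and 10.82, 10.73 and 10.60 for E2F6. CDKN1A, which encodes the cyclin-dependent kinase inhibitor p21, was 13.31, 13.26 and 13.25 in MOLM-13 with DMSO, 14.19, 14.16 and 14.16 with DAC and 14.40, 14.29 and 14.34 with NTX-301. It rose without overlap by 0.89 and 1.07 (SE 0.029 for both, limma adjusted p 2.9e-08 and 3.6e-09). CDKN1A was not among the genes tested in HL-60, so it has no value to set beside these. Genes of G2 and mitosis, which are not replication genes, moved alongside: 20 of 20 fell in MOLM-13 with each drug (medians −0.29 and −0.35), and in HL-60 5 of 20 rose with DAC and 18 of 20 with NTX-301 (median 0.14). The bearing of cell cycle position on the replication genes was not tested.

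The promoters of the 51 genes were read from RefSeq (GRCh38.p14) as the 300 bases from 250 before to 50 after the first start listed, on the strand of the gene. Entries were found for 45, and those of MCM4, MCM5, GINS4, POLD3, RPA2 and RPA3 were not used here. Both strands were searched for the E2F spellings TTTCCCGC, TTTGGCGC, TTTCGCGC and TTTGCCGC, for CCAAT, the core of the NF-Y box, and for TTTGAA, the cell cycle homology element of G2 genes. The 5 printed, with matches in capitals, are the 2 lowest genes in MOLM-13 with NTX-301 (MCM6 and GINS2, the latter also the lowest with DAC), the gene that differed most between lines (CDC45), the highest in HL-60 (RRM2) and ORC5, 1 of the 3 whose effect was not called different between lines. They lie at chr2:135876394-135876693 (minus strand), chr16:85688905-85689204 (minus), chr22:19479670-19479969 (plus), chr2:10122489-10122788 (plus) and chr7:104207964-104208263 (minus), in that order.
MCM6: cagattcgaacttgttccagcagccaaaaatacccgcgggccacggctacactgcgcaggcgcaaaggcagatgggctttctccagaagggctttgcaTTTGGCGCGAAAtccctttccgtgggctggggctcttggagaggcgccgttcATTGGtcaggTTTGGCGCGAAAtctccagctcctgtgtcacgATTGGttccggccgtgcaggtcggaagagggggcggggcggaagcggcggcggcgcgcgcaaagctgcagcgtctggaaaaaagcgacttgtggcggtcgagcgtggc
GINS2: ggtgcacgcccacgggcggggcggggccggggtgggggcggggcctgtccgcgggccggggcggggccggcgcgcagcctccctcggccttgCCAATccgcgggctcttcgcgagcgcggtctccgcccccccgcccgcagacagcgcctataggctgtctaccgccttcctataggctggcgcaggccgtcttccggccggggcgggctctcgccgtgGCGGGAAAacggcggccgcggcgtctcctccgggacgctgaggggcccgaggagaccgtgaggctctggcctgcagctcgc
CDC45: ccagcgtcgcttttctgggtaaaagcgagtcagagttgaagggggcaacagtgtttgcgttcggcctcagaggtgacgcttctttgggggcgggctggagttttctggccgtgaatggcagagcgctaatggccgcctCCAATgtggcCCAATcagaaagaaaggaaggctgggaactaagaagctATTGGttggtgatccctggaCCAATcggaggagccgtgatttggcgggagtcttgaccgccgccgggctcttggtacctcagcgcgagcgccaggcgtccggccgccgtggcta
RRM2: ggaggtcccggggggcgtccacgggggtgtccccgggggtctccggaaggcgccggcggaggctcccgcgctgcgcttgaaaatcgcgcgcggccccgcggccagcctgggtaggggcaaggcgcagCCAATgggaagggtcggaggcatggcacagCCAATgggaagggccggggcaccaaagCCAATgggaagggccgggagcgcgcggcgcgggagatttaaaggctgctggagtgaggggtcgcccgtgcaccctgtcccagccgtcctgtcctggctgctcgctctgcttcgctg
ORC5: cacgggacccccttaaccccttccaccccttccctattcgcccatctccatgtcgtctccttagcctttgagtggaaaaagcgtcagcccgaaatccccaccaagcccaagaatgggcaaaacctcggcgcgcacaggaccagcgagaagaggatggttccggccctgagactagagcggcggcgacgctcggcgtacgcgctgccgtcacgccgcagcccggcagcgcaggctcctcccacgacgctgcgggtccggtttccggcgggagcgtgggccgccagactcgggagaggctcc

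The MCM6 window holds 4 E2F matches in 2 overlapping pairs, as TTTGGCGC on the printed strand and TTTCGCGC on the other, the nearer pair at positions −90 to −79 from the start, and 2 CCAAT matches. GINS2 has 1 E2F match, TTTCCCGC on the opposite strand at −31 to −24, and 1 CCAAT. CDC45 and RRM2 have no E2F spelling in the window but 4 and 3 CCAAT matches, and ORC5 has none of the motifs. Over the 45 genes, 18 (40.0%) held an E2F spelling, beside 15.6% of 32 other replication genes and 18.8% of 16 G2 and mitosis genes. The share was 3.33% of the 27305 promoters in the table, which were not limited to genes listed in these lines. All 4 helicase subunits with an entry (MCM2, MCM3, MCM6 and MCM7) held an E2F spelling, against 1 of 6 origin recognition genes. CCAAT was in 57.8% of the 45 and 35.7% of all promoters, and TTTGAA in 4.44% and 15.4%. Genes with and without an E2F spelling had medians of −0.27 and −0.27 with DAC and −0.30 and −0.32 with NTX-301 in MOLM-13. In HL-60 the medians with NTX-301 were 0.077 and 0.11. The bearing of the spelling on the fold changes was not tested. A match is a string of letters and not a measured binding site, and no match says only that those letters are not in this window.

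The myeloid label was checked on marker genes: 10 of 12 myeloid markers were listed in HL-60, without HOXA9 and MEIS1, and 12 of 12 in MOLM-13, against 2 of 6 lymphoid markers in each line, 1 and 3 of 5 erythroid and megakaryocyte markers and 1 and 4 of 7 epithelial and fibroblast markers. Summed myeloid levels in HL-60, on the log2 scale, were 19.10 to 19.19 (DMSO), 19.09 to 19.10 (DAC) and 18.75 to 18.78 (NTX-301). Those of MOLM-13 were 18.52 to 18.53, 18.80 to 18.83 and 18.50 to 18.60, in that order. A sum of linear values is carried mostly by its highest markers, and single markers did not all follow it. Of the 10 listed in HL-60, limma called 3 higher and 4 lower with DAC, and 0 higher and 8 lower with NTX-301. Of the 12 in MOLM-13, DAC raised 5 and lowered 3 (median 0.089, from −0.29 for FLT3 to 0.78 for LYZ). NTX-301 raised 4 of those 12 and lowered 2 (median 0.042). The 1 erythroid and megakaryocyte marker listed in HL-60, ITGA2B, rose by 0.59 with DAC and 0.90 with NTX-301, from 7.89 to 7.96 in DMSO to 8.50 to 8.54 and 8.81 to 8.85. The summed lymphoid level of that line was 8.16 to 8.25 in DMSO, 8.32 to 8.35 with DAC and 8.49 to 8.61 with NTX-301, where CD79A and NKG7 rose by 0.39 and 0.34, and in MOLM-13 it was 10.40 to 10.52, 10.69 to 10.76 and 10.79 to 10.84. The summed erythroid and megakaryocyte level in MOLM-13 overlapped between groups, at 9.11 to 9.61, 8.96 to 9.43 and 9.35 to 9.93. The summed epithelial and fibroblast level was 4.60 to 4.66 in DMSO, 4.61 to 4.62 with DAC and 4.70 to 4.77 with NTX-301 in HL-60 and 9.55 to 9.69, 9.69 to 9.73 and 9.63 to 9.69 in MOLM-13. The sum of a sample's linear values, as a share of the DMSO mean of its line, was 93.0% to 97.8% with DAC and 94.7% to 95.4% with NTX-301 in MOLM-13, below the 98.9% to 100.7% of its DMSO samples. In HL-60 it was 98.5% to 99.2% and 97.7% to 99.1%, beside 99.7% to 100.5% in DMSO. The bearing of these shifts on the replication genes was not tested.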

How the data were processed

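RNA of 18 samples was sequenced from stranded total RNA libraries, per the labels' protocols. The submitters' processing notes name FastQC, Trimmomatic 0.38, HISAT2, StringTie and the build hg19. The authors deposited 1 file per sample with normalized expression values on a log2 scale, and the unit was read from the values. The normalization method, annotation version and use of strand are not given in the sources used here. Read depth is unknown, so precision rests on the 3 replicates per group. Values of low genes are compressed in these files. The 51 genes had DMSO means of at least 10.01 (HL-60) and 10.9 (MOLM-13).

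The members and gene lists were chosen with earlier results of these data known. limma 3.58.1 in R 4.3.3 was fitted to the deposited log2 values of all 9 samples of a line, with a mean per group and 6 residual degrees of freedom (eBayes with trend, two-sided). The tests took in genes that reached a linear value of 1 in 3 or more samples, 17046 in HL-60 and 17475 in MOLM-13, with Benjamini-Hochberg adjustment over all of them and a threshold of 0.05. The difference between lines was fitted in 18 samples over 15474 genes, with 12 residual degrees of freedom. The steps were tested on simulated data. Promoters from RefSeq, GRCh38.p14, were searched by exact string match.

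Given in full were, in each contrast within a line, the 2 members with the highest positive and the 2 with the lowest negative fold change among those called, and between lines the 1 highest and 1 lowest. PCNA, MCM2, CDC6, CDT1, GMNN, RRM2, E2F1 and CDKN1A were given whatever their values, as were the 2 highest and 2 lowest called of the other replication genes against DMSO, of which 1 is not reported here. Other members were named within counts of their whole role. E2F2, E2F4, E2F6, E2F7 and E2F8 fall outside this rule and were chosen after their values were seen. Alternatives were the replicate number as a block, centring or quantile normalization of samples, other filters, a pseudocount of 1, no trend, only the 2 groups compared, and leaving out each sample.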

Additional observations from a re-analysis of the deposited data

Results flagged for a closer look

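Each drug's effect on the replication genes was tested for a difference between lines, as the MOLM-13 fold change less the HL-60 one in 1 limma fit of 18 samples. For DAC, 0 of the 51 genes had a higher effect in MOLM-13 and 48 a lower one, with 0 and 49 at an unadjusted p under 0.05. Among 15474 genes, 12.1% were called higher and 17.9% lower at the adjusted threshold. CDC45 differed by −0.53 (SE 0.040, limma adjusted p 1.9e-08). For NTX-301, 0 genes had a higher effect in MOLM-13 and 48 a lower one, with 0 and 49 at an unadjusted p under 0.05. Among the 15474 genes, 17.6% were called higher and 22.4% lower with that drug. CDC45 differed by −0.65 with NTX-301 (limma adjusted p 6.5e-10). In both cases all 3 samples of the drug lay above the DMSO samples for CDC45 in HL-60 and below them in MOLM-13. The stated concentration and the line cannot be told apart.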

How the results depend on the processing

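Of the calls among the 51 genes, those kept in all 17 alternatives within a line were 4 of 8 (DAC) and 25 of 31 (NTX-301) against DMSO in HL-60, 42 of 48 and 43 of 48 in MOLM-13, and 23 of 33 and 3 of 10 between the drugs in HL-60 and MOLM-13. Between lines, 43 of 48 (DAC) and 47 of 48 (NTX-301) were kept in all 25, and none of these called genes changed sign in an alternative in which it was called. MCM6, not called between the drugs in HL-60 (−0.0030), was called higher with NTX-301 there after quantile normalization (0.052). Centring each sample gave medians of 0.066 (NTX-301) and 0.064 (NTX-301 against DAC) in HL-60, −0.31 (DAC) and −0.35 (NTX-301) in MOLM-13 and −0.33 for the DAC difference between lines. Quantile normalization gave 0.12 and 0.11, −0.21 and −0.25, and −0.23 (DAC) and −0.37 (NTX-301) between lines. Centring moved the balance of all genes in MOLM-13 to 1960 higher and 5731 lower with DAC and 2735 higher and 5760 lower with NTX-301. In HL-60, the 2 genes lower with DAC became 1 after centring, without the trend and with only the 2 groups compared, since TIPIN lost its call, and centring put 2 genes lower under NTX-301 than under DAC. In MOLM-13, the 1 gene higher with NTX-301 than with DAC (PRIM2) became 0 with the replicate block, without the trend and with only the 2 groups compared, and 2 after quantile normalization, which also called 1 gene higher with NTX-301 than with DMSO.

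Leaving out 1 sample gave 1 to 3 genes lower with DAC in HL-60 and a median there of −0.0055 to 0.020, a difference between drugs in HL-60 with a median of 0.081 to 0.11, and an NTX-301 median of −0.35 to −0.30 in MOLM-13. Between the drugs in MOLM-13 it gave 0 to 1 higher and 3 to 9 lower, and between lines medians of −0.30 to −0.27 (DAC) and −0.45 to −0.40 (NTX-301). The DAC median in HL-60 was −0.0055 without DMSO replicate 3 and 0.0020 without DMSO replicate 1. A fit without 1 sample left 2 in a group, whose spread was pooled with the other groups.

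No strong shared deviation by replicate number was seen. Deviations of same-numbered samples correlated between −0.059 and 0.12 in HL-60 and between −0.16 and 0.11 in MOLM-13, with 1 of 9 pairs over 0.1 in each. With 3 samples per group these values cannot show whether samples were paired by design, which no label states. With the replicate number as a block, NTX-301 raised 31 genes in HL-60, 47 were lower with each drug in MOLM-13, and 6 were called lower under NTX-301 than under DAC there. Effects near 0.1 on the log2 scale were within reach of 1 sample, and the unknown depth gives no other limit.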
